A study of Homo sapiens with 30 samples.

Results

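The eukaryotic initiation factor 3 (eIF3) subunit mRNAs are the subject of this account. They were taken by symbol from the deposited table of transcription start signals, and all 10 listed subunits had a row among its 16009 genes: EIF3A, EIF3B, EIF3D, EIF3E, EIF3F, EIF3G, EIF3H, EIF3I, EIF3K and EIF3L. The cells are MEL624, a human melanoma line. Controls are wild-type cells with a random guide RNA, and the other genotype is a knockout (KO) of PCIF1, the methyltransferase that makes m6Am from an adenosine at the first transcribed position. The assay keeps capped 5' ends and pulls down methylated ones with an anti-m6A antibody that also binds m6Am, and 3 input and 3 immunoprecipitated (IP) libraries were used per genotype. Both genotypes went through the same protocol, and the IPs of these libraries were made with the same monoclonal antibody. The number of KO clones is not given in the labels, so loss of PCIF1 and clone cannot be told apart. The p-values measure the spread between these libraries.

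eIF3 is the largest of the initiation factors. It sits on the small ribosomal subunit, helps to load the initiator tRNA and the mRNA, and bridges to the cap-binding complex through eIF4G. Its core is built from subunits with PCI domains (EIF3A, EIF3C, EIF3E, EIF3K, EIF3L and EIF3M) and a pair with MPN domains (EIF3F and EIF3H), while EIF3B, EIF3G and EIF3I form a separate module and EIF3D lies at the edge and can itself bind a cap. Several eIF3 mRNAs carry a 5' terminal oligopyrimidine (TOP) start, a cytidine at the cap followed by a run of pyrimidines, which puts their translation under control of mTOR. EIF3E, EIF3F, EIF3H and EIF3L are the 4 subunits named here as TOP mRNAs. A TOP start has no adenosine at the first position, and so no m6Am made by PCIF1 there.

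The annotated starts did not divide the subunits along that line. By the canonical GENCODE 44 transcript on hg38, 8 of the 10 members start with C and 2, EIF3B and EIF3I, with A. All 4 named TOP subunits start with C followed by at least 4 pyrimidines, and so do 3 of the other 6, namely EIF3A, EIF3D and EIF3K. That makes 7 of 10 members, against 5.65% of 12047 protein-coding genes in the table. The pyrimidine run, counted from the first base, is 12 bases long in EIF3H, 10 in EIF3D and EIF3F, 9 in EIF3E, 8 in EIF3K, 7 in EIF3A and 6 in EIF3L. In EIF3G it is 4 bases long, 1 short of that definition. Over all those coding genes, the first base is A in 46.1% and C in 11.3%. Annotation holds more than 1 start for 9 of these genes, so that the start used in MEL624 may differ. It holds 14 for EIF3I (6 with A), 20 for EIF3E (4 with A, 4 with C) and 4 for EIF3B (1 with A, 1 with C). EIF3D and EIF3H have 3 each with A, against 2 and 1 with C, while EIF3K and EIF3L have more with C than with A.

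The starts of 5 members are in the RefSeq promoter table (GRCh38.p14), and they are shown because the first base is what the enzyme reads. Each line gives 15 bases before the start and 15 from it, 5' to 3', and the capitals mark the first transcribed base with the pyrimidines that directly follow a pyrimidine there. EIF3B is at chr7:2354812-2354841 (plus strand), EIF3I at chr1:32222392-32222421 (plus), EIF3D at chr22:36529152-36529181 (minus), EIF3F at chr11:7987322-7987351 (plus) and EIF3K at chr19:38619173-38619202 (plus).
EIF3B: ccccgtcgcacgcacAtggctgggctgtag
EIF3I: accttttccggtcttActcacgttgcggcc
EIF3D: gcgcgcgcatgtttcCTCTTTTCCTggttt
EIF3F: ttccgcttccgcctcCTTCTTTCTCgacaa
EIF3K: ttccgtttccaccacCTCTTCCTgttcccg
EIF3A, EIF3E, EIF3G, EIF3H and EIF3L have no entry. In EIF3I the adenosine stands where the other 3 runs have their first cytidine, with pyrimidines on both sides.

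The libraries held 3232562 to 4094070 reads behind the listed genes in control inputs, 2836120 to 3544669 in KO inputs, 4035815 to 4625190 in control IPs and 1753164 to 2177874 in KO IPs, so that counts were lowest in the KO IPs. Fragments at the start of PCIF1 were higher in KO inputs (75.1 ± 4.16 CPM, reads scaled to library size) than in control inputs (53.3 ± 4.27, SD, n = 3 each). The edit need not touch this start, so the labels are not checked by it. Of 10 melanocyte markers, 3 had a row (MITF, PAX3 and RAB27A). Their sum was higher in the KO, at 42.8 to 57.1 CPM in inputs and 53.2 to 67.4 CPM in IPs, than in control cells, at 27.7 to 41.1 and 47.7 to 50.6 CPM. Of 20 markers of keratinocytes, fibroblasts, leukocytes and endothelium only the fibroblast marker PDGFRB had a row. It was lower in the KO, at 5.60 to 11.7 CPM in inputs and 13.8 to 19.6 CPM in IPs, than in control cells, at 12.9 to 17.3 and 35.4 to 44.9 CPM. These markers moved with genotype without overlap. Of all 16009 genes, 2520 were higher and 2560 lower without overlap in KO inputs, and 4158 and 4586 in KO IPs, so absence of overlap was common. The part of the markers in the genotype contrasts of the eIF3 mRNAs was not tested. Centring each library on the 79 cytosolic ribosomal protein mRNAs, in place of the deposited scaling, moved the median of all genes from -0.01 to 1.14 in control enrichment and from 0.06 to 0.61 in the difference between genotypes. Of these 79, 57 were called lower in control IPs (72.2%, against 28.2% of all genes), with a median of -1.14. Ribosomal centring holds the mean of this depleted class level across libraries, so values under it are relative to that class. Directions below refer to the deposited scaling unless this ribosomal centring is named.

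In control cells the antibody left most eIF3 starts below input. Enrichment is the log2 difference, IP minus input, with the standard error (SE) of a limma fit over all 16009 genes, and a gene was called at an adjusted p under 0.05. Of the 10 members, 7 were called lower in the IP, where 28.2% of all genes were, and 1, EIF3I, was called higher (27.7% of all genes). The median over the members was -1.06, against -0.01 over all genes. It was -1.14 over the 79 ribosomal protein mRNAs and -0.90 over 22 other TOP mRNAs. With ribosomal centring 2 members were lower (EIF3A at -0.63 and EIF3G at -0.29) and 4 higher (EIF3B, EIF3H, EIF3I and EIF3K, between 0.83 and 1.50). Protein-coding genes that start with C had a median of -0.51 and those that start with A one of 0.32.

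**Figure D1:**
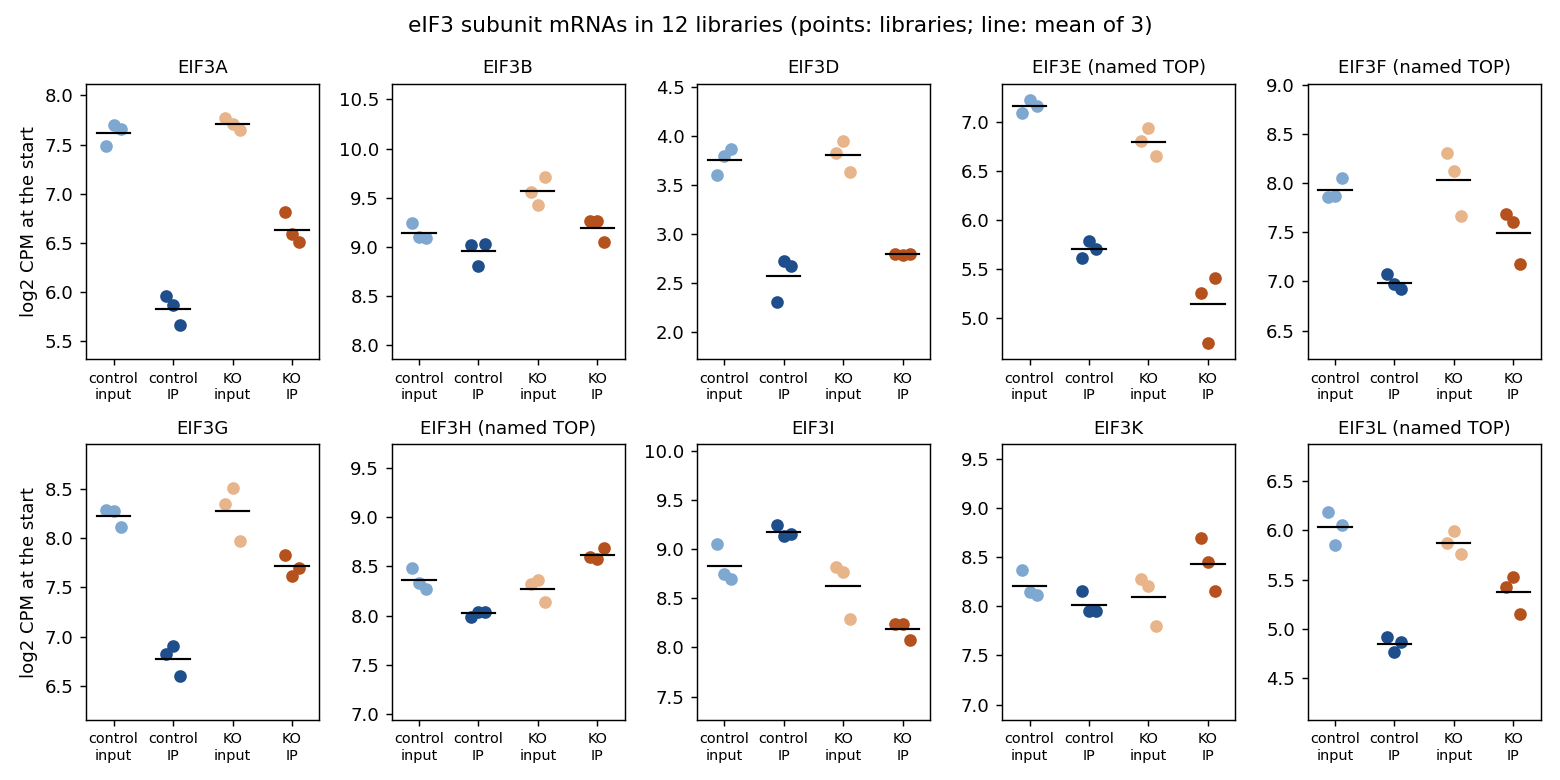
Log2 CPM at the transcription start of each eIF3 member (vertical axis, the same span of 2.8 in every panel) in the 4 groups of 3 libraries, with points for libraries and a line for their mean. EIF3A, EIF3E, EIF3G and EIF3L dropped from input to IP in both genotypes, and EIF3I is the member whose control IPs all lie above its control inputs.

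Among the PCI subunits, EIF3A, the scaffold of the core, was depleted most. Its control inputs stood at 180, 208 and 202 CPM and its IPs at 62.3, 58.3 and 50.8 CPM, groups far apart, for an enrichment of -1.79 ± 0.11 (limma adjusted p = 2.61e-11). EIF3E, which contacts eIF4G, gave 136, 149 and 143 CPM in the inputs and 48.7, 55.2 and 51.9 CPM in the IPs. Its enrichment was -1.46 ± 0.14 (adjusted p = 1.93e-08), which lost its call with ribosomal centring (-0.30, adjusted p = 0.0593). EIF3L, a subunit at the outer end of the core, gave 72.9, 57.6 and 66.6 CPM in the inputs against 30.4, 27.1 and 29.3 CPM in the IPs. Its enrichment was -1.18 ± 0.13 (adjusted p = 1.68e-07), and -0.02 with ribosomal centring. The start of ANKRD54 lies 92 bases away on the opposite strand, and its own enrichment was -0.17 ± 0.12 in control and -0.80 ± 0.12 in KO cells. Its difference, 0.63 ± 0.17 (adjusted p = 0.00840), was opposite in sign to that of EIF3L given with the other differences. EIF3K, the partner of EIF3L, behaved otherwise, with 331, 283 and 276 CPM in the inputs and 284, 248 and 247 CPM in the IPs. These groups overlapped, and -0.19 ± 0.13 was not called (adjusted p = 0.241). It was called when each input was paired with the IP of the same genotype and number (adjusted p = 0.0203).

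The MPN pair differed in size. EIF3F had control inputs of 232, 233 and 265 CPM and IPs of 135, 126 and 121 CPM, an enrichment of -0.94 ± 0.14 (adjusted p = 1.12e-05). EIF3H gave 356, 322 and 308 CPM against 255, 264 and 264 CPM, with no overlap but a drop of only -0.33 ± 0.09 (adjusted p = 0.00340). With ribosomal centring both turned positive, to 0.22 for EIF3F (adjusted p = 0.161) and to 0.83 for EIF3H (adjusted p = 6.06e-08). EIF3H, with the longest pyrimidine run of the set, was the least depleted of the 4 named TOP subunits.

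The module of EIF3B, EIF3G and EIF3I held both adenosine starts. EIF3I, a WD-repeat propeller, had control inputs of 529, 430 and 415 CPM and IPs of 607, 561 and 568 CPM. All IPs lay above all inputs, for 0.34 ± 0.12 (adjusted p = 0.0222), a call lost when control input 2, control input 3 or control IP 1 was left out (0.28 to 0.31). TMEM234, which starts 48 bases away on the opposite strand, was not called (0.25 ± 0.37). EIF3B, which holds the module together, gave 606, 550 and 544 CPM in the inputs and 519, 450 and 521 CPM in the IPs. Its -0.19 ± 0.10 was not called (adjusted p = 0.101), although the groups did not overlap, and with pairing within genotype the adjusted p was 0.0467. EIF3G, an RNA-binding subunit with a short pyrimidine run, gave 312, 311 and 279 CPM in the inputs and 113, 120 and 97.3 CPM in the IPs. Its enrichment was -1.45 ± 0.12 (adjusted p = 2.85e-09), the second-lowest value among the 6 subunits not named as TOP.

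EIF3D, the cap-binding subunit, had the fewest reads of the set. The control inputs held 45, 60 and 50 reads and the control IPs 21, 25 and 25, or 13.6 ± 1.27 against 6.01 ± 0.908 CPM (SD, n = 3). The enrichment was -1.18 ± 0.22 (adjusted p = 1.04e-04), and -0.02 with ribosomal centring (adjusted p = 0.934). In the KO IPs EIF3D had 14, 14 and 12 reads, so that its values there are the least precise of the members.

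In KO cells 8 of the 10 members were called lower in the IP than in input (31.0% of all genes) and 2 higher (28.4% of all genes). The median over the members was -0.52, against -0.07 over all genes, -0.57 over the ribosomal protein mRNAs and -0.33 over the other TOP mRNAs. The 2 that rose were EIF3H, from 319, 329 and 282 CPM to 389, 379 and 413 CPM (0.35 ± 0.09, adjusted p = 0.00219), and EIF3K, from 310, 297 and 223 CPM to 413, 350 and 283 CPM. The EIF3K groups overlapped, and its 0.33 ± 0.13 (adjusted p = 0.0390) lost its call without KO input 3, KO IP 1 or KO IP 2 (0.18 to 0.32). EIF3E was the most depleted, from 111, 122 and 101 CPM to 38.3, 26.9 and 42.4 CPM (-1.65 ± 0.14, adjusted p = 3.08e-09). EIF3A followed at -1.07 ± 0.11, EIF3D at -1.01 ± 0.22, EIF3G at -0.56 ± 0.12, EIF3F at -0.54 ± 0.14 and EIF3L at -0.50 ± 0.13. EIF3I, the start with an A, was now among the depleted, with 453, 438 and 312 CPM in the inputs and 303, 303 and 270 CPM in the IPs (-0.44 ± 0.12, adjusted p = 0.00433). EIF3B was at -0.38 ± 0.10 (adjusted p = 0.00218). With ribosomal centring 2 members stayed lower (EIF3A at -0.47 and EIF3E at -1.06) and 2 higher (EIF3H at 0.95 and EIF3K at 0.93), while EIF3B, EIF3F, EIF3G, EIF3I and EIF3L turned to between 0.04 and 0.22 with no call.

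**Figure D2:**
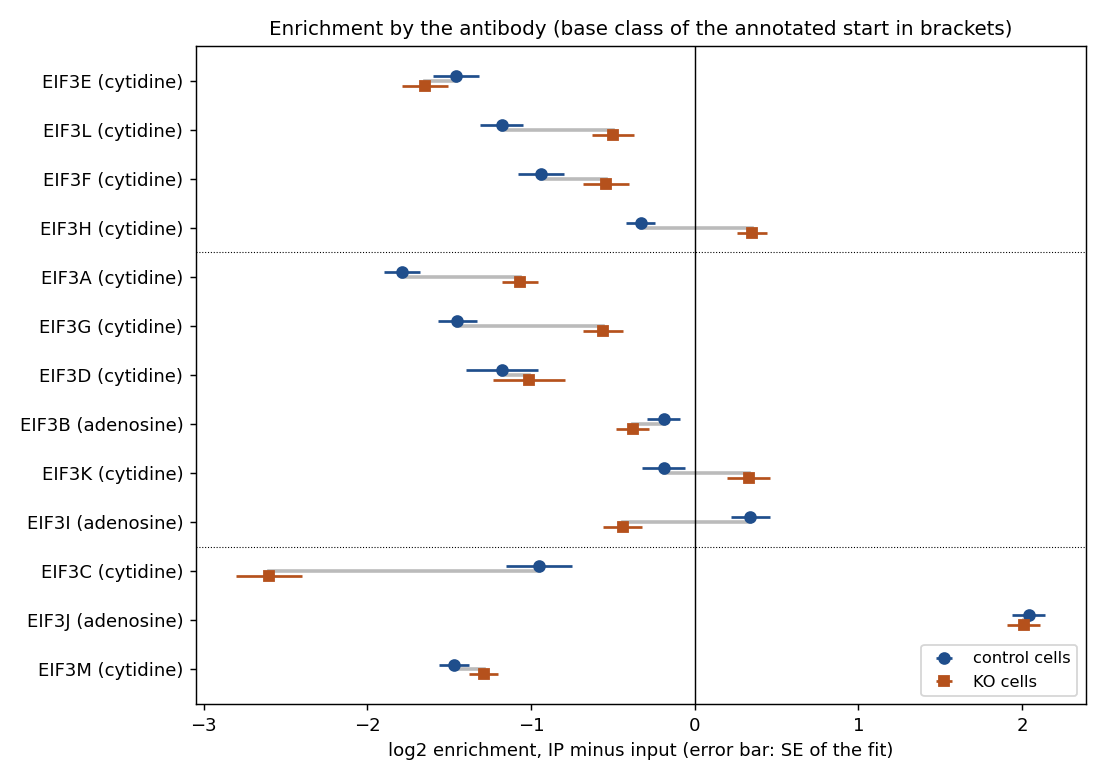
Log2 enrichment (IP minus input, horizontal axis) of the eIF3 genes in control cells (circles) and KO cells (squares), with bars for the SE of the fit and the base class of the annotated start in brackets; the top block holds the 4 named TOP subunits, the middle block the other 6 members and the bottom block 3 subunits outside the set. EIF3I moves left from 0.34 to -0.44 in KO cells, while EIF3A, EIF3G, EIF3H, EIF3K and EIF3L move right.

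The design then asks which starts lost antibody enrichment without PCIF1. Control enrichment minus KO enrichment was called for 6 of the 10 members, and for 28.8% of all genes. EIF3I was the member with more enrichment in control cells, at 0.79 ± 0.17 (adjusted p = 0.00193), where 15.8% of all genes were called in that direction. It stayed called with ribosomal centring (1.34, adjusted p = 1.04e-06) and without any single library (0.69 to 0.96). The 5 others went the opposite way, as 13.0% of all genes did. They were EIF3G (-0.89 ± 0.17, adjusted p = 5.00e-04), EIF3A (-0.71 ± 0.15, adjusted p = 0.00120), EIF3H (-0.68 ± 0.12, adjusted p = 3.92e-04), EIF3L (-0.68 ± 0.18, adjusted p = 0.00832) and EIF3K (-0.52 ± 0.19, adjusted p = 0.0445). All 5 start with C and were less depleted, or more enriched, in KO cells. None of these 5 calls held with ribosomal centring, where their values lay between -0.33 and 0.04. Such values are relative to the ribosomal protein mRNAs, whose own median difference was -0.54 in the deposited scaling. EIF3K also lost its call when any of 8 libraries was left out (-0.57 to -0.37).

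The other 4 members were not called for this difference. EIF3B, the second adenosine start, was at 0.19 ± 0.14 (adjusted p = 0.329), and at 0.75 with ribosomal centring (adjusted p = 0.00203). EIF3E was at 0.20 ± 0.19 (adjusted p = 0.489), on the side of the adenosine starts, but at -0.00 without KO IP 2, its lowest library, and at 0.75 with ribosomal centring (adjusted p = 0.00407). EIF3F was at -0.40 ± 0.20 (adjusted p = 0.150). It passed with pairing within genotype (adjusted p = 0.0107) and without KO IP 3 (-0.55, adjusted p = 0.0283), and its value was 0.16 with ribosomal centring. EIF3D was at -0.17 ± 0.31 (adjusted p = 0.719), or 0.39 with ribosomal centring.

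Over the members the median difference was -0.46, beside 0.06 over all genes, -0.54 over the 79 ribosomal protein mRNAs and -0.63 over 22 other TOP mRNAs. Coding genes that start with C had a median of -0.10, those with a C and at least 4 pyrimidines -0.21 and those that start with A 0.37. EIF3I and EIF3B lie on either side of the last of these medians, and 7 of the 8 cytidine starts lie below the first.

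**Figure D3:**
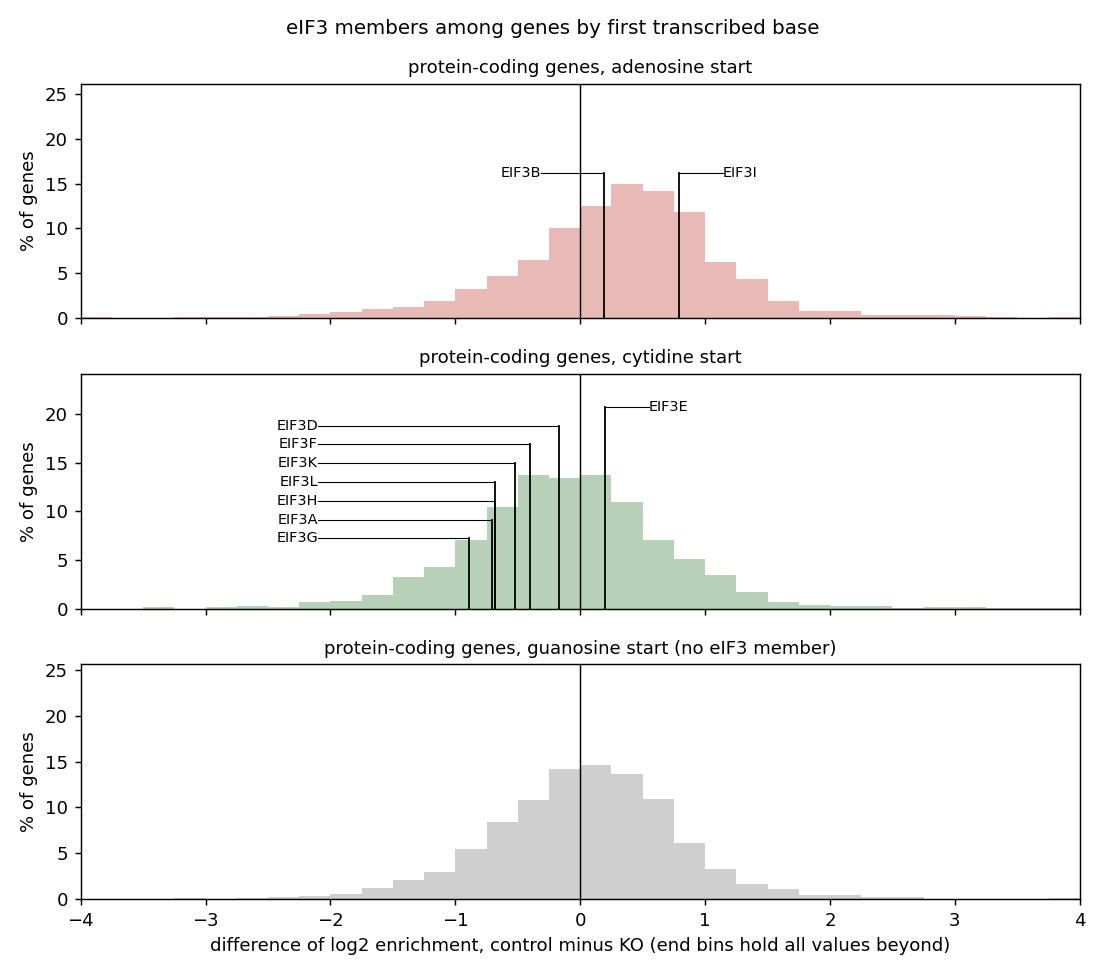
Share of protein-coding genes (vertical axis, %) by difference of log2 enrichment, control minus KO (horizontal axis, bins of 0.25), for adenosine, cytidine and guanosine starts, with lines for the eIF3 members. EIF3I stands at 0.79 and EIF3B at 0.19 among adenosine starts, and the cytidine starts run from EIF3G at -0.89 to EIF3E at 0.20.

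Both sides of that difference were then read on their own, inputs first. KO inputs had nearly the same eIF3 signal as control inputs, with a median difference of -0.02 over the members (-0.02 over all genes). Only EIF3B was called, higher in the KO, where 11.2% of all genes were called, 5.56% higher and 5.67% lower. It stood at 757, 691 and 840 CPM against 606, 550 and 544 CPM. The groups did not overlap and the difference was 0.43 ± 0.10 (adjusted p = 0.00635), or 0.47 with ribosomal centring, and was lost without the mean-variance trend of the fit (adjusted p = 0.0530). In bulk RNA a change per cell and a change in the share of cells cannot be told apart. Among 10 genes within 1 Mb of EIF3B on chromosome 7 the median input difference was 0.13, and 2 were called higher and 0 lower. Their part in the EIF3B value was not tested. EIF3E was lower in all KO inputs than in all control inputs (111, 122 and 101 against 136, 149 and 143 CPM), but -0.36 ± 0.14 was not called (adjusted p = 0.0996). It was called in a fit of the inputs alone (adjusted p = 0.0210), with limma-voom on recovered reads (adjusted p = 0.0157) and without KO IP 2 (adjusted p = 0.0292). The other 8 members lay between -0.20 (EIF3I) and 0.10 (EIF3F), with overlapping groups.

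The IPs differed far more often. Of the 10 members, 7 were called higher in KO IPs than in control IPs (23.0% of all genes) and 2 lower (26.0% of all genes). Their median was 0.45, against -0.04 over all genes, 0.54 over the ribosomal protein mRNAs and 0.60 over the other TOP mRNAs. These values share the control and KO IPs with the enrichments above and are no separate evidence. EIF3I fell in the KO, from 607, 561 and 568 CPM to 303, 303 and 270 CPM (-0.99 ± 0.12, adjusted p = 1.81e-06), and to -1.50 with ribosomal centring. EIF3E dropped from 48.7, 55.2 and 51.9 CPM to 38.3, 26.9 and 42.4 CPM (-0.56 ± 0.14, adjusted p = 0.00229), -0.36 without KO IP 2 and -1.07 with ribosomal centring. EIF3G rose most, from 113, 120 and 97.3 CPM to 228, 197 and 208 CPM (0.94 ± 0.12, adjusted p = 2.42e-06), and it was the 1 member still called higher with ribosomal centring (0.42). EIF3A rose from 62.3, 58.3 and 50.8 CPM to 112, 96.0 and 91.1 CPM (0.80 ± 0.11). EIF3H (0.59 ± 0.09), EIF3L (0.52 ± 0.13), EIF3F (0.50 ± 0.14), EIF3K (0.41 ± 0.13) and EIF3B (0.24 ± 0.10, adjusted p = 0.0498) were smaller. With ribosomal centring these 5 lay between -0.28 and 0.08 with no call. EIF3B lost its call without any of 9 libraries (0.17 to 0.27), and EIF3K without control IP 2, control IP 3 or KO IP 1 (0.28 to 0.38).

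**Figure D4:**
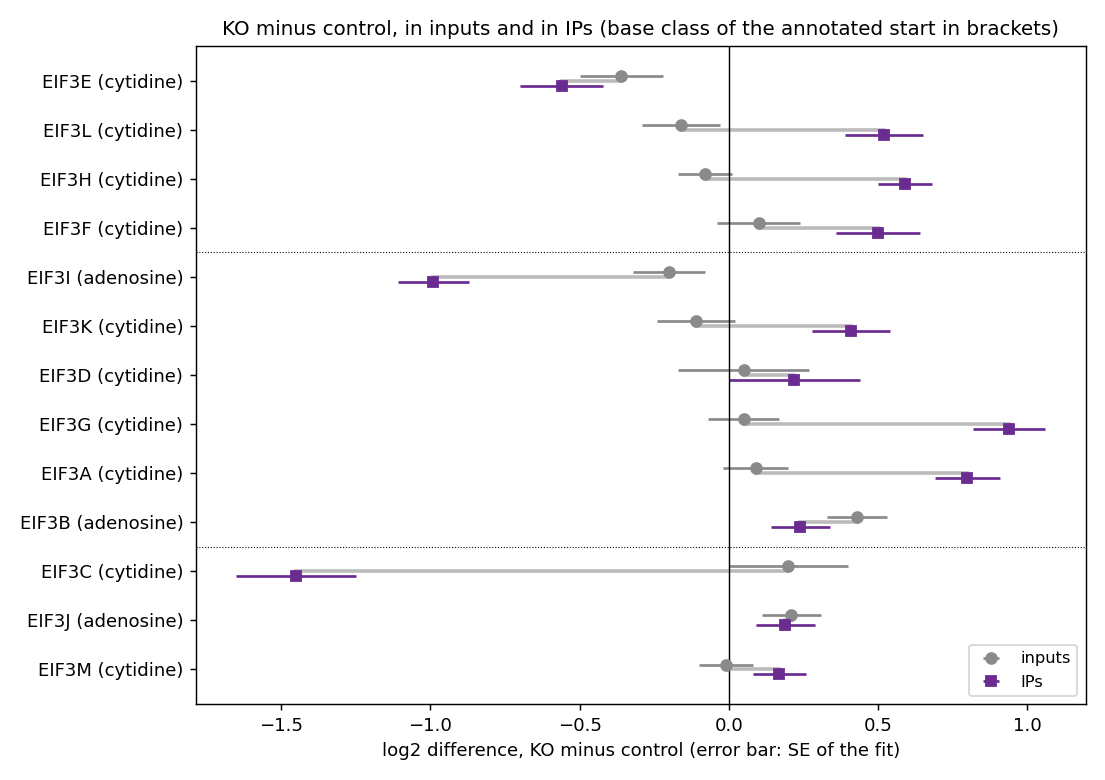
Log2 difference KO minus control (horizontal axis) in inputs (circles) and in IPs (squares) for the eIF3 genes, with bars for the SE of the fit and blocks as for the enrichment plot. Input values of the members lie between -0.36 (EIF3E) and 0.43 (EIF3B), while IP values run from -0.99 (EIF3I) to 0.94 (EIF3G).

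The named TOP subunits were next set against the other 6. Within a library the scaling cancels in this comparison, and since members are not replicates no test was made. Its level mixes genes whose windows may differ in length, so only its change between groups can be read. The mean log2 CPM of the 4 named TOP subunits minus that of the other 6 was -0.27, -0.31 and -0.21 in control inputs, and -0.52, -0.51 and -0.46 in control IPs. It was -0.44, -0.42 and -0.46 in KO inputs and -0.53, -0.54 and -0.44 in KO IPs. The control inputs stood above the other 9 libraries, which overlapped. In control enrichment the named TOP subunits averaged -0.98 and the others -0.74, a gap of -0.23, and in KO enrichment -0.59 and -0.52, a gap of -0.06. The pooled SD between libraries of a group was 0.04. Without EIF3D, the gaps were -0.32 and -0.16. In the difference of enrichment the means were -0.39 and -0.22. The other 6 hold both adenosine starts, EIF3B (-0.19 in control enrichment) and EIF3I (0.34). All 8 cytidine starts averaged -1.06 in control enrichment, lower than the 4 named TOP subunits. The control gap thus does not set the named TOP subunits below the other cytidine starts.

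A split by annotated first base, made after the values were seen, set the members further apart. The mean of the 8 cytidine starts minus that of the 2 adenosine starts was -1.97, -1.78 and -1.73 in control inputs and fell to -3.03, -2.84 and -3.03 in control IPs. In KO inputs it was -2.01, -1.88 and -2.09, and in KO IPs -2.11, -2.26 and -2.12. The control IPs thus stood apart from the other 9 libraries. The gap in control enrichment was -1.14, with the cytidine starts at -1.06 and the adenosine starts at 0.08, and in KO enrichment it was -0.17, with -0.58 and -0.41. In the difference of enrichment the cytidine starts averaged -0.48 and the adenosine starts 0.49. Only 2 genes make up the adenosine side, and EIF3I (0.79) has the larger of their differences. The split holds members only, and its gaps depend on that. EIF3J, an adenosine start outside the set, had 2.04 in control and 2.01 in KO enrichment, a difference of 0.03. The cytidine starts outside the set, EIF3C, EIF3M and EIF3CL, had differences of 1.65, -0.18 and -1.18.

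**Figure D5:**
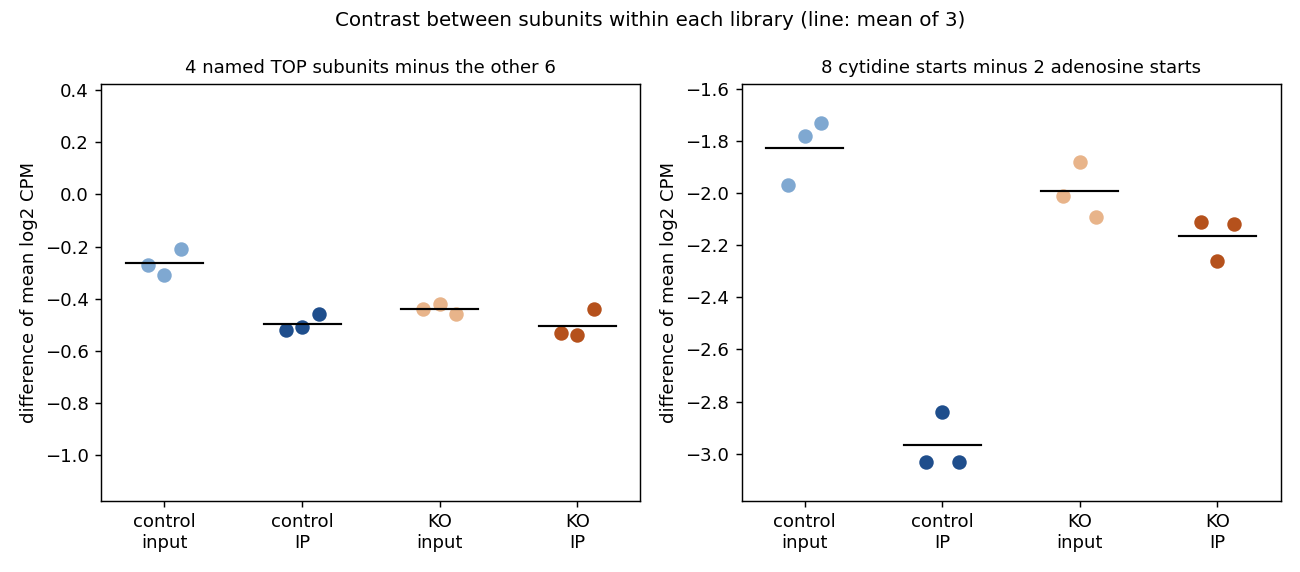
Difference of mean log2 CPM within each library (vertical axes, which span 1.6 in both panels) for the named TOP subunits minus the other members (left) and for cytidine minus adenosine starts (right), with points for libraries and lines for means of 3. Both panels hold members only, without EIF3J. On the left the control IPs, KO inputs and KO IPs lie between -0.54 and -0.42. On the right the control IPs lie between -3.03 and -2.84 and all other libraries at or above -2.26.

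Members also varied among themselves across the 12 libraries, which share their groups and so are not independent points. EIF3A, EIF3F, EIF3G and EIF3L had pairwise Pearson r of 0.92 to 0.96, and EIF3D joined them at 0.87 to 0.94. EIF3H and EIF3K, both little depleted in control cells, had r = 0.71 with each other and 0.12 and -0.08 with EIF3D. EIF3I had r = -0.73 with EIF3H and -0.39 with EIF3B, and its highest value was 0.30, with EIF3E. The genes outside the set most like the mean of the 4 named TOP subunits were RPL28 (r = 0.993), MIR6835 (0.990), SF3B2 (0.989), GAPDH (0.988) and PPIA (0.988). Those most like the mean of the other 6 were RPLP1 (0.993), RACK1 (0.991), EEF2 (0.990), PPIA (0.990) and MRPS24 (0.988). RPL28, RPLP1, RACK1, EEF2 and MRPS24 start with C by annotation, while SF3B2, GAPDH and PPIA start with G and MIR6835 with T. Both sets of 5 were depleted in control cells, the first between -2.41 (RPL28) and -1.07 (MIR6835) and the second between -2.38 (PPIA) and -1.13 (RACK1). That depletion follows from choosing genes by likeness to profiles that fall from input to IP, and is no separate result.

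EIF3C, EIF3CL, EIF3J and EIF3M complete the eIF3 genes of the table. EIF3J, a loosely bound subunit whose annotated starts all begin with A, was the eIF3 gene the antibody enriched most. It went from 211, 202 and 225 CPM in control inputs to 868, 841 and 912 CPM in control IPs (2.04 ± 0.10, adjusted p = 1.58e-12), and from 248, 216 and 280 CPM to 1084, 977 and 930 CPM in KO cells (2.01 ± 0.10). The difference between genotypes was 0.03 ± 0.14 (adjusted p = 0.911), or 0.58 with ribosomal centring (adjusted p = 0.0141). Between KO and control IPs the adenosine starts went different ways in the deposited scaling, with EIF3I at -0.99, EIF3J at 0.19 (not called) and EIF3B at 0.24. With ribosomal centring all 3 were below 0, EIF3I at -1.50, EIF3J at -0.33 (adjusted p = 0.0374) and EIF3B at -0.28 (adjusted p = 0.0672). The divergent non-coding gene EIF3J-DT starts 101 bases away, with an enrichment of 0.34 ± 0.14 in control cells. EIF3M, a PCI subunit that starts with C, was depleted in control (-1.47 ± 0.09) and KO cells (-1.29 ± 0.09), with a difference of -0.18 ± 0.12 (adjusted p = 0.302). With ribosomal centring these were -0.32 and -0.70, and the difference was 0.38 (adjusted p = 0.0558).

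EIF3C, a core PCI subunit with an annotated cytidine start, went the opposite way to the cytidine-start members called for the difference of enrichment. Of coding genes that start with C, 12.1% were called higher in this difference and 19.4% lower. It gave 48.7, 33.5 and 44.1 CPM in control inputs, 29.0, 21.9 and 15.8 CPM in control IPs and 9.40, 6.41 and 8.09 CPM in KO IPs, the last from 19, 13 and 14 reads. Its KO inputs, at 46.3, 50.7 and 46.5 CPM, overlapped the control inputs. The difference of enrichment was 1.65 ± 0.29 (adjusted p = 2.20e-04), or 2.21 with ribosomal centring, larger than that of EIF3I. EIF3C has a near-identical copy, EIF3CL, which held between 1 and 21 reads per library, so that the division of reads between the copies is uncertain. EIF3CL went the opposite way between IPs, at 1.96 ± 0.74 KO minus control (limma adjusted p = 0.0335) against -1.45 ± 0.20 for EIF3C. This EIF3CL value rests on 1, 1 and 1 reads in control IPs and 3, 4 and 1 in KO IPs. Its call was lost when any of 5 libraries was left out. It was also lost with 1 CPM added before the log (0.82, adjusted p = 0.0684) and in a fit of the IPs alone (adjusted p = 0.0563). EIF3C has 8 annotated starts, 2 with A, 1 with C and 5 with G or T, and which one was used was not tested.

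The other initiation factors were mixed in direction. Of 31 measured, 14 were called higher (45.2%, against 27.7% of all genes) and 10 lower (32.3%, against 28.2%) in control IPs, with a median of 0.38. The smallest adjusted p-values belonged to EIF5B, which joins the ribosomal subunits (2.53 ± 0.13), and EIF1AX, which takes part in scanning (2.14 ± 0.09). EIF2B3 (1.85 ± 0.11), of the nucleotide exchange factor of eIF2, and EIF2S2 (1.61 ± 0.09), the beta subunit of eIF2, were higher as well. In KO cells 14 were higher and 10 lower (median 0.20), where 28.4% and 31.0% of all genes were, among them EIF5B (2.71 ± 0.13), EIF4E2 (2.94 ± 0.16) and EIF6 (-2.07 ± 0.12). The difference of enrichment was called for 10 of the 31, 6 towards control (19.4%) and 4 towards KO cells (12.9%), shares near the 15.8% and 13.0% of all genes, with a median of -0.02. EIF6 (1.21 ± 0.17) and EIF2B3 (1.18 ± 0.15) were on the side of EIF3I, and PABPC1 (-1.26 ± 0.15), which binds poly(A) tails, and EIF4A2 (-1.22 ± 0.18) on that of EIF3G and EIF3A. In inputs 1 of the 31 was called, EIF4A2, lower in the KO (-0.48 ± 0.13, adjusted p = 0.0169).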

How the data were processed

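The authors deposited log2 CPM values, library-scaled reads on a log2 scale with a small count added, for the start region of each gene. The submitters' processing notes name edgeR 3.12.1, R 3.3.3, featureCounts, HISAT2 2.0.4, deepTools 3.0.2 and SAMtools 1.7, and the build hg38. Window, strand setting, annotation and filters are not given in these sources, so levels of single genes were not compared, and contrasts between sets of members are read only across groups. Back-transformed values were whole reads within 0.01 in 100% of cases, with an added count of 0.25. Of 30 samples, 18 first-stage libraries were not analysed here.

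Group means of the 12 libraries were fitted with a mean-variance trend by limma 3.58.1 (R 4.3.3), and 5 contrasts were adjusted by Benjamini-Hochberg over 16009 genes (threshold 0.05). The fit was tested on simulated data. Columns are numbered 1 to 3 and labels lettered, so columns were assigned to groups. Deviations of inputs and IPs with the same genotype and number correlated at 0.15 to 0.37 in all 6 pairs, so a fit with 6 such blocks was added. Starts come from GENCODE 44. Members and lists were chosen with earlier results of these data known. The text names all members, the other eIF3 genes, PCIF1, up to 4 initiation factors per contrast by adjusted p and the 5 genes most correlated with each mean profile, at a mean log2 CPM of at least 3.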

Additional observations from a re-analysis of the deposited data

Results flagged for a closer look

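Enrichment differed between the genotypes, by the test of the difference itself (limma, adjusted p under 0.05), for 6 eIF3 members and several other genes named above. Of these others, 5 are given here, while EIF1AX (0.73), EIF4E2 (-1.18) and ANKRD54 (0.63) passed as well. Calls of this difference are not given for the cell type markers or for the genes chosen by likeness. The latter had differences from -1.11 (GAPDH) to -0.39 (RACK1). EIF3I was more enriched in control than in KO cells (0.79), with 0.34 in control and -0.44 in KO cells. EIF3A (-0.71), EIF3G (-0.89), EIF3H (-0.68), EIF3K (-0.52) and EIF3L (-0.68) went the other way. In EIF3H the sign turned in the deposited scaling, from -0.33 in control to 0.35 in KO cells. With ribosomal centring it was 0.83 and 0.95, with a difference of -0.12 (adjusted p = 0.495), and EIF3I alone of the 6 members kept its call. EIF3C, with few reads in the KO IPs, had the largest difference among eIF3 genes, 1.65. Of the other initiation factors, EIF6 (1.21) and EIF2B3 (1.18) were more enriched in control cells, and PABPC1 (-1.26) and EIF4A2 (-1.22) in KO cells.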

How the results depend on the processing

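Ribosomal protein centring moved the most: it called 4 members in KO enrichment (2 higher, 2 lower), 3 in the difference (3 higher, EIF3B and EIF3E newly called beside EIF3I) and 3 between IPs (1 higher, 2 lower), and 91.2% of all called genes were then higher in control enrichment (49.5% with the deposited scaling), 75.0% (47.8%) in KO enrichment, 88.2% (54.8%) in the difference and 17.6% (46.9%) between IPs. It turned the sign of control enrichment in EIF3B (0.97), EIF3F (0.22), EIF3H (0.83), EIF3K (0.97) and EIF3C (0.21), and of KO enrichment in EIF3B (0.22), EIF3F (0.06), EIF3G (0.04), EIF3I (0.16) and EIF3L (0.10). It also turned the difference in EIF3D (0.39), EIF3F (0.16), EIF3K (0.04) and EIF3M (0.38), the IP contrast in EIF3B (-0.28), EIF3D (-0.30), EIF3F (-0.02), EIF3K (-0.10), EIF3J (-0.33) and EIF3M (-0.34), and the input contrast in EIF3M (0.04, and 0.03 with library median centring). Members called between inputs were 0 without the trend, 2 with only the groups compared and 2 with limma-voom on recovered reads, an alternative added after seeing the data; the cause was not tested. The planned count test on recovered reads was not run, since the deposited unit is log2. The TOP minus other gap was replaced by -1.14, -0.17, -0.97 and 0.80 (control, KO, difference, IPs) for C minus A starts, and by -0.32 and -0.16 (control, KO) without EIF3D. Leaving out 1 library at a time gave 7 to 8, 9 to 10, 5 to 7, 1 to 2 (2 without KO IP 2) and 7 to 9 members called in control enrichment, KO enrichment, difference, inputs and IPs, and 1177 (without control input 3) to 2201 genes between inputs. It turned signs between inputs in EIF3D (-0.03 to 0.13), EIF3F (-0.04 to 0.29), EIF3G (-0.07 to 0.20), EIF3K (-0.20 to 0.04) and EIF3M (-0.05 to 0.03), and in the difference in EIF3E (-0.00 to 0.33) and EIF3J (-0.07 to 0.12), none of them called. With 3 replicate blocks the pairing by column number changed no member's call (8, 10, 6, 1 and 9 called), and with blocks within genotype, added later, 10, 10 and 7 were called in control enrichment, KO enrichment and difference. Depth limits EIF3D, EIF3C and EIF3CL most, with few reads in the KO IPs.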
